A study of Mus musculus with 12 samples.

Results

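The genes described here are 9 nuclear regulators of mitochondrial biogenesis: the coactivator genes Ppargc1a and Ppargc1b, the estrogen-related receptor genes Esrra, Esrrb and Esrrg, the transcription factor genes Nrf1 and Gabpa, the mitochondrial DNA packaging factor gene Tfam, and the muscle regulator gene Perm1. They were chosen by name among 55450 genes in the count table. The rule uses no measured value, but it was set with earlier results of these data known. All 9 were among the 19276 genes that passed the filter on low counts. RNA was sequenced from the tibialis anterior (TA) of wild-type mice on the 129Pas background, with no engineered allele and no treatment, at embryonic day E18.5, 2 weeks (wks) and 7 wks of age. Each age had 4 libraries, numbered as replicates 1 to 4. The TA is a hindlimb muscle made mostly of fast fibres, and the series follows it from before birth to young adulthood.

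Mitochondria are built from proteins of both the nuclear and the mitochondrial genome, and a small network of nuclear regulators keeps their production in step. The coactivators PGC-1α and PGC-1β do not bind DNA themselves but are recruited by DNA-binding factors, among them the estrogen-related receptors, NRF1 and the GABP complex, to genes of oxidative phosphorylation and fatty acid oxidation. One of the downstream genes is Tfam, whose product packages mitochondrial DNA and starts its transcription. In skeletal muscle Ppargc1a is best known as a gene induced by contraction, and Perm1 was named as a muscle gene induced by PGC-1 and the estrogen-related receptors.

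The libraries held 63018968 to 123449246 counts each, and each of the 9 genes had at least 124 counts in every library. Levels are given as CPM, counts relative to library size, after TMM scaling, which aligns the bulk of genes between libraries. This choice matters in growing muscle, where few genes dominate. The share of counts in the 20 most abundant genes was 8.38 to 11.3% before birth, but 32.2 to 35.3% in the 2 wks libraries and 36.3 to 37.7% in the 7 wks libraries. With scaling by total counts alone, the median of all genes lay lower than with TMM by 0.93 on the log2 scale from E18.5 to 2 wks, by 0.35 from 2 to 7 wks and by 1.28 from E18.5 to 7 wks, so every difference is relative to that choice. Libraries also differed in how counts depended on the GC content of the transcripts. The log2 difference between transcripts of 60% and 40% GC ran from -2.27 to -0.14 before birth, from 0.78 to 1.05 in the 2 wks libraries and from -0.46 to 0.90 in the 7 wks libraries, and each comparison was repeated with this trend removed. The E18.5 and 2 wks ranges did not overlap. Between these ages a library trend and a change of GC-rich transcripts with age therefore cannot be told apart. Removing the trend may also remove part of such a change, so those values are an alternative and not a correction. E18.5 replicates 3 and 4 stood apart because they held adipocyte RNA. Ucp1, the uncoupling protein that defines brown adipocytes, was at 224 and 923 CPM in those libraries. It was at 0.305 CPM or less in E18.5 replicates 1 and 2 and at 0.168 to 11.6 CPM in the 8 postnatal libraries. Of the skeletal muscle fibre markers, 8 of 8 were present in every library, with summed levels of 7625 to 17114 CPM before birth. The sums reached 140149 to 163808 CPM in the 2 wks libraries and 144987 to 196505 CPM in the 7 wks libraries. In whole muscle, a change in the number of fibres or other cells and a change in RNA per cell cannot be told apart. Whether the libraries of an age came from separate litters is not given in the labels, and the p-values measure the spread between these libraries.

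Perm1, Esrra, Tfam and Gabpa are shown with the bases before their transcription start, because they hold letters known as binding motifs of factors in this network. Promoters of 8 of the 9 genes were matched in RefSeq on build GRCm38.p6, with 1 start each for Perm1, Esrra, Tfam and Gabpa. For these, 250 bases before the start are printed 5′ to 3′ on the strand of the gene. Capitals mark the motif letters. Each start lies inside the span given for its gene below. The Perm1 start, chr4:156215927, lies far from the first base of that span, chr4:156203262. The printed bases of Perm1 and Tfam lie wholly inside their spans, and those of Esrra and Gabpa mostly so. They therefore come before the matched start but not before the whole gene. Perm1 is read from chr4:156215677-156215926 on the plus strand, Esrra from chr19:6921809-6922058 on the minus strand, Tfam from chr10:71238045-71238294 on the minus strand and Gabpa from chr16:84834874-84835123 on the plus strand.
Perm1: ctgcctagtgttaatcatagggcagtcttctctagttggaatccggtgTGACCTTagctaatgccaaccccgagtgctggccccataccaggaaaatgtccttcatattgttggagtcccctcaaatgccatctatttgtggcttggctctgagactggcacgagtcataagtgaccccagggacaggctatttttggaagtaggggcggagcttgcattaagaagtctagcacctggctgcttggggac
Esrra: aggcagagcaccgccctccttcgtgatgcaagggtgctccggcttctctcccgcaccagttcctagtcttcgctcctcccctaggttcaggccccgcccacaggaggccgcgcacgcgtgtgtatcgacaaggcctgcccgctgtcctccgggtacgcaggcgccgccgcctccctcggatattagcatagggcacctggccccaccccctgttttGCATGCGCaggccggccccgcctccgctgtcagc
Tfam: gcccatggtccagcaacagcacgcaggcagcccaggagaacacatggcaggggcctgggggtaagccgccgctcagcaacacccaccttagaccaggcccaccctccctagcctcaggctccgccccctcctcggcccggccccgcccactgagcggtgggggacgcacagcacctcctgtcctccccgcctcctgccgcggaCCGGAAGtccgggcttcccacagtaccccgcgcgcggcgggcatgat
Gabpa: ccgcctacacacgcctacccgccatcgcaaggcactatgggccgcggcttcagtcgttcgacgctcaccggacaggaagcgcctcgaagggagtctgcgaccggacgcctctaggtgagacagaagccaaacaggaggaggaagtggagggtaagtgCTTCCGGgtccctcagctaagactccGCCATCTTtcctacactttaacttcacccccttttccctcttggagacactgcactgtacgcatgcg
The letters AAGGTCA, the half-site read by estrogen-related receptors, were found in the Perm1 promoter as TGACCTT on the other strand, with the first base at position -202 from the start. In all, 4.72% of 32851 RefSeq mouse promoters, searched on both strands from 250 bases before to 50 bases after the start, held this half-site, and 0.423% held the longer form TCAAGGTCA, which no matched promoter held. The letters GCGCATGC, from the palindrome that NRF1 binds, were found in the Esrra promoter as GCATGCGC from position -34, against 2.71% of all promoters. The letters CCGGAAG, an ETS motif of the kind that GABPA binds, were found in the Tfam promoter from position -47 and in the Gabpa promoter itself as CTTCCGG from position -93, against 8.86% of all promoters. The Gabpa promoter also held GCCATCTT from position -67, the reverse complement of the YY1 motif AAGATGGC, which 2.75% of promoters held. The cyclic AMP response element TGACGTCA was in 1.79% of promoters and in none of those matched. These matches are letters in a window and carry no measurement of binding.

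With TMM, Perm1 and Esrra rose by the largest amounts of the 9 genes between E18.5 and 2 wks, Esrrb rose less and Gabpa fell. With the GC trend removed, the rises of Esrra and Esrrg in that interval were of similar size, and Esrrb did not pass the threshold. Between 2 and 7 wks, Ppargc1a, Esrrb, Esrrg, Tfam and Perm1 rose. Over the whole span from E18.5 to 7 wks, 6 of 9 genes rose and none fell past the threshold, an adjusted p of 0.05 by edgeR's quasi-likelihood test over all genes tested. From E18.5 to 2 wks, 3 of 9 were higher and 1 was lower, when 31.5% of all genes tested were higher and 34.2% lower. From 2 to 7 wks, 5 of 9 were higher and none lower, against 13.5% of all genes higher and 13.9% lower. From E18.5 to 7 wks, 6 of 9 were higher, against 34.3% higher and 37.1% lower among all genes. Among all genes, total-count scaling changed the split of calls from 6074 higher and 6594 lower to 2552 and 11917 in the first comparison, from 2608 and 2687 to 948 and 5391 in the second, and from 6610 and 7145 to 2293 and 13296 in the third. With that scaling 2 of the 9 genes were higher and 4 lower, 1 was higher and none lower, and 3 were higher and 4 lower. With the GC trend removed the counts were 4 higher and 2 lower, 3 and none, and 6 and 1, where the gene lower over the whole span was Nrf1. Among all genes that setting called 5254 higher and 7564 lower, 2643 and 3720, and 5891 and 8635. Without E18.5 replicates 3 and 4 the members called were 4, 5 and 7, beside 11573, 5138 and 12891 of all genes. Without E18.5 replicate 4 alone 7 were called from E18.5 to 2 wks, beside 12307 of all genes. From 2 to 7 wks 1 was called without 2 wks replicate 1 or 2, 2 without 7 wks replicate 1 or 2, and 3 without 2 wks replicate 3. Those fits called 3472 to 4519 of all genes, against 5295 with all libraries. The median log2 fold change of the 9 genes was 0.40, 0.51 and 1.09 in these comparisons, beside -0.09, -0.03 and -0.09 for all genes tested.

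**Figure D1:**
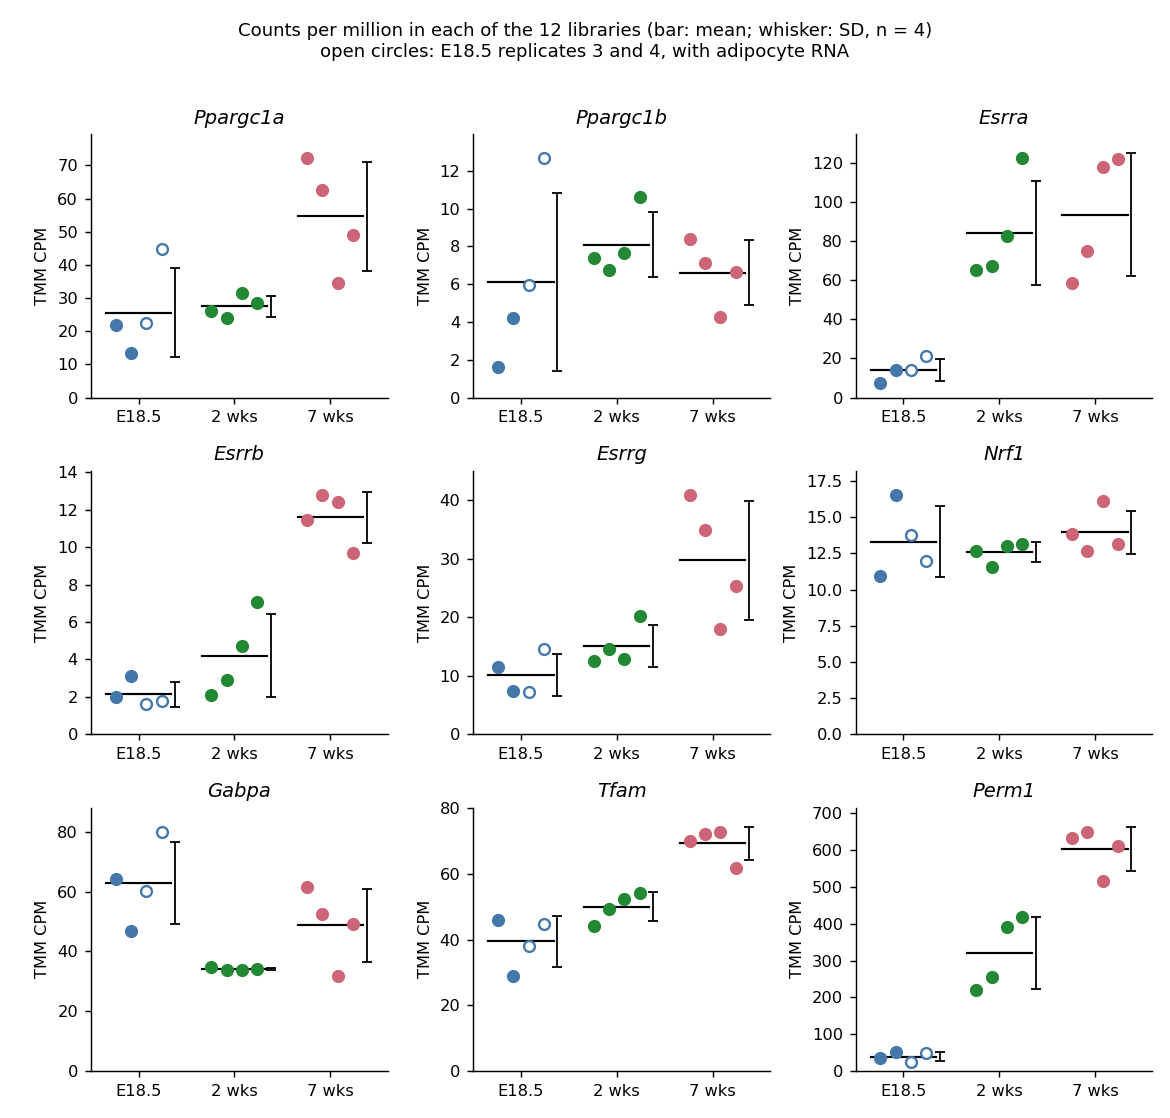
TMM CPM (vertical axes, linear and from 0) of each of the 9 genes in each library, by age; points are libraries, the bar is the mean and the whisker the SD of 4 libraries, and open circles are the E18.5 libraries with adipocyte RNA. Perm1 at 7 wks (516 to 650 CPM) and Esrra at 2 wks (65.2 to 122 CPM) lay above every E18.5 library, whereas Nrf1 stayed between 10.9 and 16.5 CPM in all 12 libraries.

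The coactivators did not follow the same course. Ppargc1a, which encodes PGC-1α (chr5:51454249-52115853, GRCm38.p6), was at 21.8, 13.3, 22.6 and 44.7 CPM in E18.5 replicates 1 to 4, at 26.0, 24.0, 31.5 and 28.5 CPM at 2 wks, and at 72.2, 62.7, 34.6 and 49.1 CPM at 7 wks. Every 7 wks library was above every 2 wks library, while E18.5 replicate 4 reached into the 7 wks range. The gene rose 1.99-fold from 2 to 7 wks (log2 0.99 ± 0.31 SE, edgeR adjusted p = 0.0287) and 2.13-fold from E18.5 to 7 wks (log2 1.09 ± 0.31 SE, adjusted p = 0.00567), although with total-count scaling the latter difference was -0.17 on the log2 scale (adjusted p = 0.605). For the first interval, to 2 wks, the log2 difference was 0.10 ± 0.30 SE (adjusted p = 0.778), and with total-count scaling it was -0.83 (adjusted p = 0.0227). The rise from 2 to 7 wks missed the threshold without 2 wks replicate 1, 2 or 4 or without 7 wks replicate 1 or 2 (log2 0.83 to 1.01, adjusted p from 0.0531 to 0.0806), with the GC trend removed (log2 0.69, adjusted p = 0.0614) and with total-count scaling (log2 0.65, adjusted p = 0.109).

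Ppargc1b encodes PGC-1β, the close relative of PGC-1α (chr18:61291445-61400756, GRCm38.p6). It was at 1.61, 4.19, 5.95 and 12.7 CPM at E18.5, at 7.36, 6.73, 7.64 and 10.6 CPM at 2 wks, and at 8.36, 7.09, 4.27 and 6.66 CPM at 7 wks. The E18.5 libraries spread 7.84-fold and covered the whole range of the later ages. No comparison passed the threshold, with log2 differences of 0.40 ± 0.44 SE from E18.5 to 2 wks (adjusted p = 0.432), -0.29 ± 0.44 SE from 2 to 7 wks (adjusted p = 0.655) and 0.11 ± 0.44 SE from E18.5 to 7 wks (adjusted p = 0.832). With total-count scaling the last of these was -1.16 (adjusted p = 0.0248).

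E18.5 replicates 3 and 4 held adipocyte RNA, and brown adipocytes also express both coactivator genes. E18.5 replicate 4, with the most Ucp1 (923 CPM) and Cidea (380.2 CPM), had the most Ppargc1a and Ppargc1b of that age. It also had the most Esrra (21.2 CPM), Esrrg (14.5 CPM) and Gabpa (80.1 CPM) of that age, but not the most Esrrb, Nrf1, Tfam or Perm1. With the GC trend removed, E18.5 replicate 4 had the most Tfam (38.6 CPM, against 29.8 to 34.8 CPM) and Perm1 (59.6 CPM, against 27.5 to 54.8 CPM) of that age as well. Esrrb and Nrf1 were still not highest in that library. Ppargc1a was at 22.6 CPM in E18.5 replicate 3 and at 21.8 CPM in E18.5 replicate 1. The summed level of the 6 brown adipocyte markers was 25.8 and 31.6 CPM in E18.5 replicates 1 and 2 and 446 and 1473 CPM in replicates 3 and 4. At 2 and 7 wks the same sum was 391 to 757 CPM, of which 375 to 751 CPM was Cox7a1, a cytochrome oxidase subunit that muscle expresses too, with Ucp1 at or below 11.6 CPM. The sum of the 6 white adipocyte markers was 179 and 232 CPM in E18.5 replicates 2 and 1, 1971 and 2699 CPM in replicates 3 and 4, and 309 to 483 CPM afterwards, mostly Fabp4. Without both libraries, the E18.5 level of Ppargc1b rested on 1.61 and 4.19 CPM, and the gene was higher at 2 wks (log2 1.47, adjusted p = 0.00578) and at 7 wks (log2 1.18, adjusted p = 0.0155). Without E18.5 replicate 4 alone, the log2 difference from E18.5 to 2 wks was 1.04 (adjusted p = 0.0247). Those differences did not remain with the GC trend removed as well (log2 0.32, adjusted p = 0.419, and log2 0.38, adjusted p = 0.329). For Ppargc1a the log2 difference from E18.5 to 2 wks became 0.65 without both libraries (adjusted p = 0.068) and 1.17 with the GC trend removed as well (adjusted p = 0.000123), and that from E18.5 to 7 wks became 1.64 (adjusted p = 0.000415). The part of the adipocyte RNA in the E18.5 levels of both genes was not tested beyond these values.

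**Figure D2:**
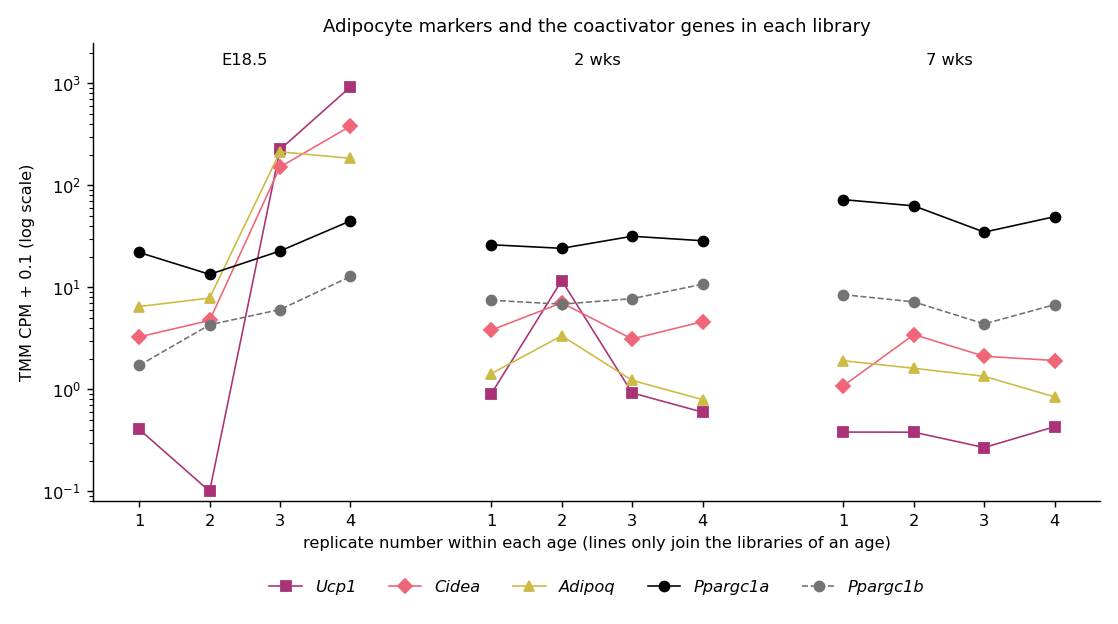
TMM CPM plus 0.1 (vertical axis, log scale) of the adipocyte markers Ucp1, Cidea and Adipoq and of Ppargc1a and Ppargc1b in each of the 12 libraries, by age and replicate number (horizontal axis; lines only join libraries of an age). The markers were at 151 CPM or more in E18.5 replicates 3 and 4 and at 11.6 CPM or less in the other 10 libraries.

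The estrogen-related receptors are orphan nuclear receptors that bind DNA and recruit the PGC-1 coactivators. Esrra (chr19:6910977-6922048), which encodes ERRα, was at 7.19, 14.1, 14.0 and 21.2 CPM at E18.5, at 65.2, 67.1, 82.4 and 122 CPM at 2 wks, and at 58.7, 75.0, 118 and 122 CPM at 7 wks. All 8 postnatal libraries lay above all 4 E18.5 libraries, and the 2 postnatal ages overlapped, with 7 wks replicate 1 below every 2 wks library. The gene rose 5.96-fold by 2 wks (log2 2.58 ± 0.33 SE, adjusted p = 1.85e-05) and was 6.61-fold above E18.5 at 7 wks (log2 2.72 ± 0.34 SE, adjusted p = 6.96e-06), with a log2 difference of 0.15 ± 0.32 SE between 2 and 7 wks (adjusted p = 0.76). That last difference was 0.54 with the GC trend removed (adjusted p = 0.104) and -0.18 with total-count scaling (adjusted p = 0.663). It passed the threshold with the GC trend removed together with a replicate block (log2 0.57, adjusted p = 0.0157) or together with leaving out E18.5 replicates 3 and 4 (log2 0.53, adjusted p = 0.039). Both rises from E18.5 stayed past the threshold under every alternative run, but their size varied. Esrra has the most GC-rich transcripts of the set (60.9% GC) and the library with the lowest Esrra, E18.5 replicate 1, had the steepest GC trend (-2.27). With the GC trend removed the log2 rises were 1.03 to 2 wks (adjusted p = 0.00223) and 1.57 to 7 wks (adjusted p = 6.81e-05), and the adjusted levels were 16.0 to 40.1 CPM at E18.5, 39.8 to 70.2 CPM at 2 wks and 67.5 to 88.6 CPM at 7 wks.

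Esrrb (chr12:86361117-86521628), which encodes ERRβ, had the lowest mean level of the receptors at each age. It was at 1.97, 3.11, 1.63 and 1.78 CPM at E18.5, at 2.08, 2.91, 4.72 and 7.08 CPM at 2 wks, and at 11.4, 12.8, 12.4 and 9.71 CPM at 7 wks. The 7 wks libraries lay above all others, and the 2 wks libraries reached down into the E18.5 range. The rise was 5.45-fold from E18.5 to 7 wks (log2 2.45 ± 0.34 SE, adjusted p = 1.9e-05) and 2.76-fold from 2 to 7 wks (log2 1.46 ± 0.33 SE, adjusted p = 0.00539). The earlier step, 1.98-fold from E18.5 to 2 wks (log2 0.98 ± 0.33 SE, adjusted p = 0.0163), missed the threshold without 2 wks replicate 4 (log2 0.62, adjusted p = 0.0804), without E18.5 replicates 3 and 4 (log2 0.72, adjusted p = 0.143), with the GC trend removed (log2 0.13, adjusted p = 0.721) and with total-count scaling (log2 0.02, adjusted p = 0.958).

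Esrrg (chr1:187608510-188214885), which encodes ERRγ, a receptor known from oxidative muscle, was at 11.4, 7.34, 7.22 and 14.5 CPM at E18.5, at 12.4, 14.6, 12.9 and 20.2 CPM at 2 wks, and at 40.9, 34.9, 17.96 and 25.3 CPM at 7 wks. All 7 wks libraries lay above all E18.5 libraries, and only 7 wks replicate 3 fell within the 2 wks range. The gene rose 2.94-fold from E18.5 to 7 wks (log2 1.55 ± 0.29 SE, adjusted p = 0.000241), a difference that was 0.29 with total-count scaling (adjusted p = 0.328). It rose 1.98-fold from 2 to 7 wks (log2 0.99 ± 0.28 SE, adjusted p = 0.0197), but not past the threshold without 2 wks replicate 1, 2 or 3 or without 7 wks replicate 1 or 2 (log2 0.79 to 0.97, adjusted p from 0.0523 to 0.0698) or with total-count scaling (log2 0.65, adjusted p = 0.0801). For the first interval, to 2 wks, the log2 difference was 0.57 ± 0.28 SE (adjusted p = 0.0886), which was past the threshold without E18.5 replicate 4 (log2 0.79, adjusted p = 0.0271), with a replicate block (log2 0.61, adjusted p = 0.0426) and with the GC trend removed (log2 1.02, adjusted p = 0.00162).

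Per kilobase of exon, which allows genes to be set side by side, the mean receptor levels at E18.5 were 2.83 ± 1.15 CPM for Esrra, 1.63 ± 0.57 CPM for Esrrg and 0.35 ± 0.11 CPM for Esrrb (SD, n = 4). At 7 wks they were 18.7 ± 6.30, 4.79 ± 1.64 and 1.91 ± 0.23 CPM per kilobase. Esrra therefore had the highest mean and Esrrb the lowest at each of these ages, and at E18.5 Esrra and Esrrg overlapped.

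Perm1 (chr4:156203262-156221307), the muscle gene named for its induction by PGC-1 and the estrogen-related receptors, had the largest rise of the set. It was at 35.4, 50.1, 23.0 and 48.1 CPM at E18.5, at 219, 255, 391 and 417 CPM at 2 wks, and at 634, 650, 516 and 612 CPM at 7 wks. The 3 ages did not overlap. The rise was 8.18-fold from E18.5 to 2 wks (log2 3.03 ± 0.27 SE, adjusted p = 9.68e-07), 1.88-fold from 2 to 7 wks (log2 0.91 ± 0.26 SE, adjusted p = 0.0179) and 15.4-fold over the whole span (log2 3.94 ± 0.29 SE, adjusted p = 5.94e-08). The step from 2 to 7 wks missed the threshold without 2 wks replicate 1 (log2 0.75, adjusted p = 0.0645), without 2 wks replicate 2 (log2 0.82, adjusted p = 0.0612) and with total-count scaling (log2 0.59, adjusted p = 0.0594), whereas the rises from E18.5 stayed past it under every alternative run. At 7 wks Perm1 was the most abundant of the 9 genes per kilobase of exon, at 127 ± 12.7 CPM (SD, n = 4), followed by Esrra at 18.7 ± 6.30 CPM and Tfam at 14.7 ± 1.09 CPM, which overlapped with each other. The skeletal muscle fibre markers rose over the same interval, 8 of 8 from E18.5 to 2 wks with a median log2 fold change of 3.44, and the part of fibre content in the rise of Perm1 was not tested.

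Nrf1 and Gabpa encode the DNA-binding factors first known as nuclear respiratory factors 1 and 2. Nrf1 (chr6:30047985-30153458) showed the narrowest range of the set, with 10.9, 16.5, 13.8 and 11.96 CPM at E18.5, 12.7, 11.6, 13.0 and 13.1 CPM at 2 wks, and 13.8, 12.7, 16.1 and 13.2 CPM at 7 wks. The 3 ages overlapped. No comparison passed the threshold with TMM. The log2 difference was -0.08 ± 0.15 SE from E18.5 to 2 wks (adjusted p = 0.664), 0.15 ± 0.15 SE from 2 to 7 wks (adjusted p = 0.502) and 0.07 ± 0.15 SE over the whole span (adjusted p = 0.698). It was lower after E18.5 with the GC trend removed (log2 -0.47 to 2 wks, adjusted p = 0.00157, and -0.34 to 7 wks, adjusted p = 0.00948) and with total-count scaling (log2 -1.01, adjusted p = 5.49e-05, and log2 -1.21, adjusted p = 7.44e-06).

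Gabpa (chr16:84834891-84863783), the ETS-family subunit of the GABP complex, was the only one of the 9 to fall past the threshold with TMM. It was at 64.1, 46.9, 60.3 and 80.1 CPM at E18.5, at 34.7, 33.9, 33.7 and 34.1 CPM at 2 wks, and at 61.4, 52.4, 31.9 and 49.0 CPM at 7 wks. The 2 wks libraries differed by 1.03-fold at most and lay below every E18.5 library, while at 7 wks 3 of 4 libraries were above the 2 wks range and replicate 3 was below it. From E18.5 to 2 wks Gabpa fell to 0.543 of its level (log2 -0.88 ± 0.19 SE, adjusted p = 0.00128), and the fall remained past the threshold with the GC trend removed (log2 -0.37, adjusted p = 0.0275) and with total-count scaling (log2 -1.81, adjusted p = 2.73e-06). Without E18.5 replicates 3 and 4 it was -0.70 (adjusted p = 0.0175), and -0.17 with the GC trend removed as well (adjusted p = 0.281). From 2 to 7 wks the log2 difference was 0.51 ± 0.19 SE (adjusted p = 0.0646) and from E18.5 to 7 wks -0.37 ± 0.19 SE (adjusted p = 0.102). The former passed the threshold without E18.5 replicate 2 (log2 0.51, adjusted p = 0.0444) or 7 wks replicate 3 (log2 0.67, adjusted p = 0.0111), and the latter without E18.5 replicate 2 (log2 -0.48, adjusted p = 0.0345) or 7 wks replicate 1 (log2 -0.49, adjusted p = 0.0423). The difference over the whole span was also past the threshold with total-count scaling (log2 -1.64, adjusted p = 4.33e-06), upper-quartile scaling (log2 -0.62, adjusted p = 0.0101), the length trend removed (log2 -0.51, adjusted p = 0.0178) and at least 10 counts in every library (log2 -0.53, adjusted p = 0.0246). It was 0.028 without E18.5 replicates 3 and 4 and with the GC trend removed (adjusted p = 0.858). Exons of Gabpa share 23.7% of their length with Atp5pf, a subunit gene of ATP synthase on the opposite strand, and those of Esrra share 29.6% with Trmt112. Whether the counting used strand is not given in the sources used here.

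Tfam (chr10:71225468-71238328), the end point of the network in the nucleus, was at 46.1, 29.0, 37.9 and 44.8 CPM at E18.5, at 44.1, 49.4, 52.2 and 54.2 CPM at 2 wks, and at 70.1, 72.3, 72.8 and 61.8 CPM at 7 wks. The 7 wks libraries lay above all others. Tfam rose 1.76-fold from E18.5 to 7 wks with TMM (log2 0.81 ± 0.15 SE, adjusted p = 0.00028), a difference that turned to -0.46 on the log2 scale with total-count scaling (adjusted p = 0.00908). It rose 1.39-fold from 2 to 7 wks (log2 0.47 ± 0.15 SE, adjusted p = 0.0335), which missed the threshold without 2 wks replicate 1, 2 or 3 or without 7 wks replicate 1, 2 or 3 (log2 0.40 to 0.49, adjusted p from 0.0579 to 0.12), with a replicate block (log2 0.47, adjusted p = 0.0511), with the GC trend removed (log2 0.24, adjusted p = 0.148) and with total-count scaling (log2 0.13, adjusted p = 0.526). For the first interval, to 2 wks, the log2 difference was 0.34 ± 0.15 SE (adjusted p = 0.0605), and with total-count scaling it was -0.59 (adjusted p = 0.00209). It passed the threshold without E18.5 replicate 1 (log2 0.42, adjusted p = 0.0256), E18.5 replicate 4 (log2 0.41, adjusted p = 0.0461) or 2 wks replicate 1 (log2 0.42, adjusted p = 0.0409), and with the GC trend removed (log2 0.76, adjusted p = 0.000137).

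**Figure D3:**
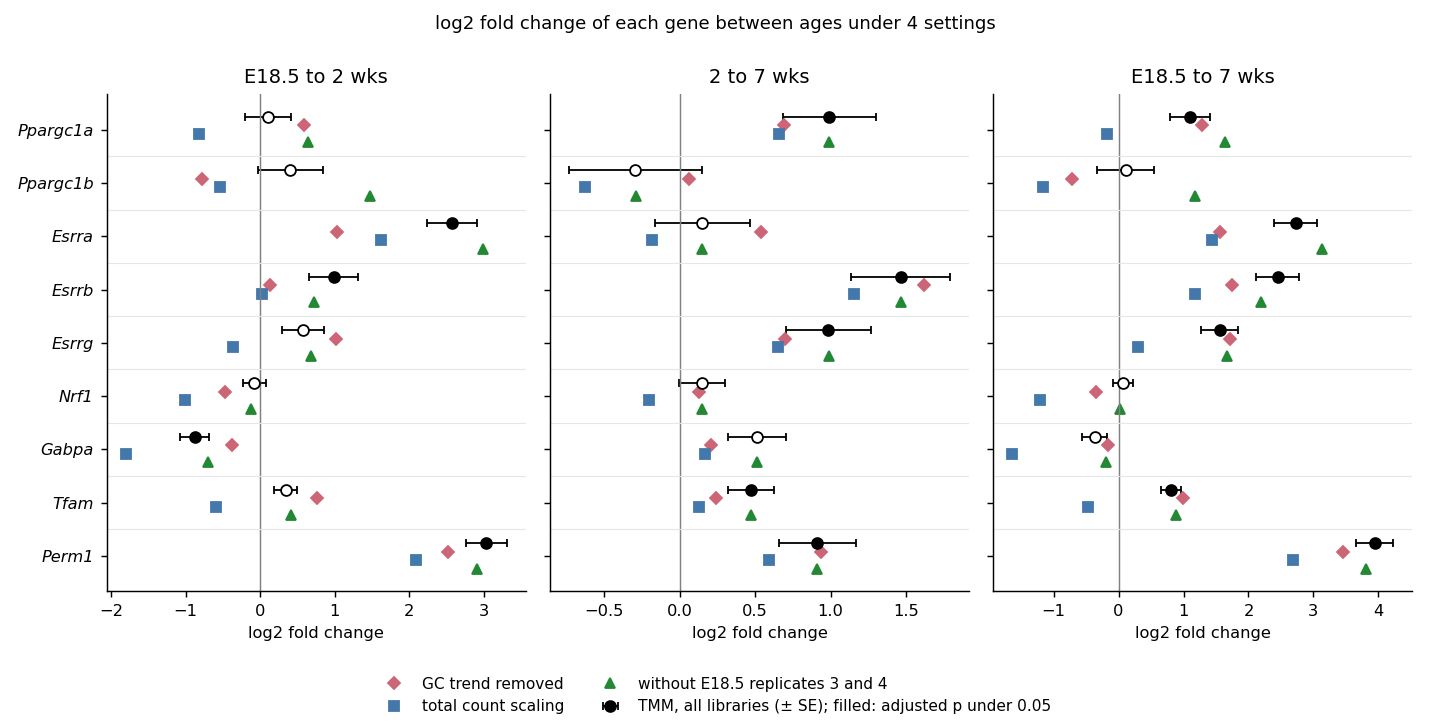
log2 fold change (horizontal axes) of each gene in the 3 comparisons with TMM (circles with SE, filled where the adjusted p was under 0.05), with the GC trend removed, with total-count scaling and without E18.5 replicates 3 and 4. Perm1 and Esrra stayed above 0 by 1 or more from E18.5 to 2 wks under all 4 settings, whereas Tfam from E18.5 to 7 wks was 0.81 with TMM and -0.46 with total-count scaling.

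The change from E18.5 to 2 wks and that from 2 to 7 wks were set against each other in the same edgeR model, with the 2 wks libraries shared by both. The difference passed the threshold for 3 of 9 genes, when 38.4% of all genes tested passed it. Perm1 rose more in the first interval, by 2.12 ± 0.43 SE on the log2 scale (adjusted p = 0.0022), as did Esrra, by 2.43 ± 0.53 SE (adjusted p = 0.00348). Gabpa fell in the first interval relative to the second, with a difference of -1.39 ± 0.35 SE (adjusted p = 0.00715). With the GC trend removed the difference for Perm1 was 1.58 (adjusted p = 0.0126), that for Esrra 0.49 (adjusted p = 0.389) and that for Gabpa -0.58 (adjusted p = 0.0808). Ppargc1a (-0.89 ± 0.54 SE, adjusted p = 0.206), Esrrb (-0.48 ± 0.56 SE, adjusted p = 0.521) and Esrrg (-0.42 ± 0.49 SE, adjusted p = 0.522) did not pass, so the test did not show that these genes rose more in the later interval.

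Ratios of counts within a library do not depend on the scaling between libraries but do depend on the GC trend, and 5 ratios were compared over the 3 pairs of ages by 2-sided exact permutation tests. With 4 libraries against 4 the smallest p the test can give is 0.0286. Of the 15 comparisons, 4 reached it, which adjusts to 0.107, and none passed the threshold after adjustment. The 4 comparisons that reached the smallest p were those without overlap. Perm1 over Ppargc1a was 1.62, 3.77, 1.02 and 1.08 in E18.5 replicates 1 to 4, 8.41 to 14.6 at 2 wks and 8.78 to 14.9 at 7 wks, with geometric means of 1.61, 11.3 and 11.4. Perm1 thus gained on Ppargc1a between E18.5 and 2 wks in 16 of 16 pairs of libraries, and also without E18.5 replicates 3 and 4 (geometric mean 2.47 at E18.5). Esrra over Esrrg was 0.63, 1.92, 1.94 and 1.46 at E18.5 and 4.596 to 6.41 at 2 wks, and spread from 1.44 to 6.56 at 7 wks. This separation was gone with the GC trend removed, with ratios of 2.12 to 3.65 at E18.5 and 2.70 to 3.75 in the 2 wks libraries (exact p = 0.857). The GC trend and age cannot be told apart between these 2 ages. Ppargc1a over Ppargc1b was 13.5 in E18.5 replicate 1 and 3.17 to 3.80 in the other E18.5 libraries, then 2.69 to 4.13 at 2 wks and 7.37 to 8.84 at 7 wks. The balance of the coactivators therefore differed between 2 and 7 wks without overlap, with geometric means of 3.44 and 8.22, while E18.5 replicate 1, the library with the steepest GC trend, stood above every other library. The transcripts of Ppargc1a hold 42.1% GC and those of Ppargc1b 58.3%. With the GC trend removed the Ppargc1a to Ppargc1b ratio was 1.80 to 3.56 at E18.5, 4.91 to 6.49 in the 2 wks libraries and 6.77 to 13.6 in the 7 wks libraries, without overlap between ages and with no E18.5 library above the others of the series. Perm1 over Ppargc1a kept its separation with the GC trend removed, with geometric means of 2.38, 8.44 and 10.3. In all, 6 of the 15 comparisons were without overlap with that trend removed (adjusted p = 0.0715 for each, exact permutation test). Nrf1 over Gabpa had geometric means of 0.213, 0.369 and 0.293 at the 3 ages (E18.5 to 2 wks, exact p = 0.0571, adjusted p = 0.171), which became 0.305, 0.282 and 0.268 with the GC trend removed. Esrrb over Esrrg had 0.212, 0.256 and 0.406 (E18.5 to 7 wks, exact p = 0.114, adjusted p = 0.268), which became 0.350, 0.175 and 0.362.

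**Figure D4:**
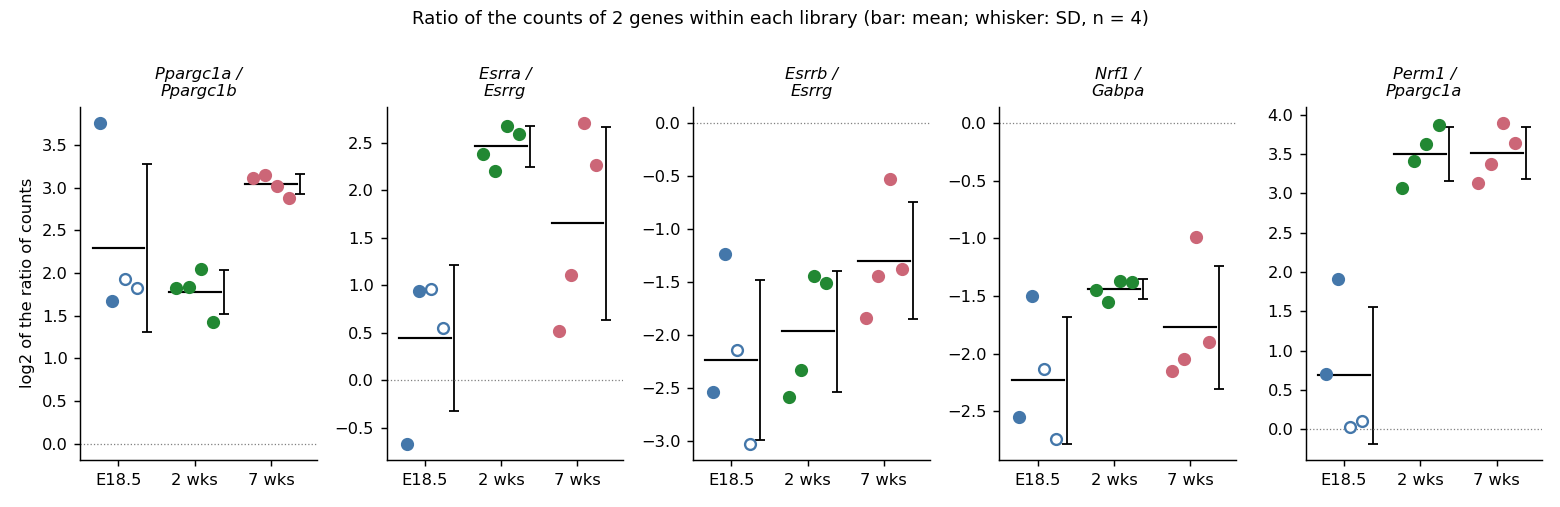
log2 of the ratio of counts of 2 genes within each library (vertical axes), by age; points are libraries, bars and whiskers are the mean and SD of 4 libraries, the dotted line is a ratio of 1, and open circles are E18.5 replicates 3 and 4. The Perm1 to Ppargc1a ratio had geometric means of 1.61 at E18.5 and 11.3 at 2 wks without overlap, and the Ppargc1a to Ppargc1b ratio lay at 7.37 to 8.84 in the 7 wks libraries, all without removal of the GC trend.

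Genes with the course most like that of each regulator were sought among 11857 genes by the root mean square (RMS) difference of centred log2 CPM over the 12 libraries, in which shared depth and GC trends also count. Nearest to Ppargc1a were Ptpn4 (RMS 0.15), Opa1 (0.22), the gene of the fusion GTPase of the inner mitochondrial membrane, and Pcmtd1 (0.22). Nearest to Esrra were Slc25a34 (0.18), a member of the mitochondrial carrier family, Gatd3a (0.22) and Ndufv1 (0.23), a core subunit of respiratory complex I. Nearest to Perm1 were Mreg (0.17), Kcnc1 (0.20) and Got1 (0.22), the cytosolic aspartate aminotransferase. Nearest to Tfam were Ei24 (0.09), Pyroxd1 (0.11) and Rpp30 (0.11). Nearest to Gabpa were Uhmk1 (0.08), Kdm5a (0.10) and Atf2 (0.11). Esrrg was nearest to Fam210a (0.21), Rrm2b (0.22), a ribonucleotide reductase subunit used for mitochondrial DNA synthesis, and Clcn3 (0.24). Esrrb was nearest to 5031439G07Rik (0.27), Uaca (0.29) and Efcab6 (0.31). Nrf1 was nearest to Slc3a2 (0.09), Nup85 (0.09) and Ppp1r8 (0.09). Ppargc1b was nearest to Ano1 (0.29), Sbno2 (0.38) and Miga2 (0.40). Within the set, Ppargc1a and Esrrg were nearest to each other (0.33) and so were Esrra and Perm1 (0.71). The median over all genes compared was 0.82 for Ppargc1a, 1.32 for Esrra and 1.69 for Perm1.

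Other genes of the pathway were taken from fixed lists, which were also chosen with earlier results of these data known. Of 16 genes for the transcription and replication of mitochondrial DNA, on which TFAM acts, 8 were higher and 3 lower from E18.5 to 2 wks, 3 higher and none lower from 2 to 7 wks, and 9 higher and 3 lower over the whole span, with median log2 fold changes of 0.24, 0.26 and 0.80. The shares of all genes tested were 31.5% higher and 34.2% lower, 13.5% and 13.9%, and 34.3% and 37.1%. The largest rises from E18.5 to 7 wks were those of Lonp1, a matrix protease (log2 2.19, from 39.2 ± 12.8 to 178 ± 26.1 CPM, SD, n = 4), Polrmt, the mitochondrial RNA polymerase (log2 2.18, from 4.68 ± 2.17 to 21.2 ± 7.66 CPM), and Tfb2m, which melts the promoter beside TFAM (log2 1.70, from 14.2 ± 4.44 to 46.0 ± 1.70 CPM). The falls were those of Mterf1a (log2 -0.74), its near-identical copy Mterf1b (log2 -0.72), between which reads may be split, and Polg2, the accessory subunit of the mitochondrial DNA polymerase (log2 -0.61). With total-count scaling the split turned to 2 higher and 9 lower of 16 from E18.5 to 2 wks, 1 higher and none lower from 2 to 7 wks, and 3 higher and 9 lower over the whole span. It was 8 and 2 with the GC trend removed from E18.5 to 2 wks, 5 and none from 2 to 7 wks, and 10 and 2 over the whole span.

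Of 29 partners and regulators of the coactivators, 13 were higher and 7 lower from E18.5 to 2 wks, 8 higher and none lower from 2 to 7 wks, and 16 higher and 7 lower from E18.5 to 7 wks, with median log2 fold changes of 0.01, 0.32 and 0.60. Among all genes tested, 31.5% were higher and 34.2% lower, 13.5% and 13.9%, and 34.3% and 37.1% in these comparisons. The largest rises over the whole span were those of Prkab2 (log2 3.10) and Prkag3 (log2 2.67), which encode muscle subunits of the energy sensor AMPK, and of Rxra (log2 2.75), the common partner of nuclear receptors. Prkaa2, the catalytic AMPK subunit gene of muscle, rose by 2.49. The largest falls were those of Pparg (log2 -2.86) and Ppara (log2 -1.71), fatty acid receptors that adipocytes express, and of Gabpb1 (log2 -0.84), the partner subunit of GABPA. Ppara was at 11.1 and 9.46 CPM in E18.5 replicates 1 and 2 and at 30.0 and 76.8 CPM in replicates 3 and 4, which held the adipocyte RNA, and Pparg was at 5.31 and 5.84 CPM against 73.3 and 86.1 CPM. At 7 wks Ppara was at 3.14 to 14.1 CPM and Pparg at 3.69 to 7.55 CPM, ranges that hold the levels of E18.5 replicates 1 and 2. The part of the adipocyte RNA in their fall was not tested beyond leaving out E18.5 replicates 3 and 4, which left 12 of 29 higher and 3 lower. With total-count scaling, 7 were higher and 16 lower in both comparisons with E18.5, and 4 higher and 1 lower from 2 to 7 wks. The split with the GC trend removed was 9 higher and 12 lower to 2 wks, 11 and 1 from 2 to 7 wks, and 14 and 11 over the whole span.

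Of 25 genes known as targets of PGC-1 and the estrogen-related receptors in muscle, 23 were higher and none lower from E18.5 to 2 wks, with a median log2 fold change of 2.12. From 2 to 7 wks, 3 were higher and none lower (median 0.39), and over the whole span 25 of 25 were higher (median 2.22). Of all genes tested, 31.5%, 13.5% and 34.3% were higher in these comparisons, so the count from 2 to 7 wks was near the share of all genes. The largest rises over the whole span were those of Mb, myoglobin (log2 9.36, from 14.9 ± 6.12 to 9808 ± 2739 CPM, SD, n = 4), Ucp3, the mitochondrial carrier of skeletal muscle (log2 5.83, from 5.69 ± 1.71 to 323 ± 99.4 CPM), and Cox6a2, the muscle form of a cytochrome oxidase subunit (log2 5.06, from 12.3 ± 8.40 to 409 ± 252 CPM). The 3 genes that rose from 2 to 7 wks were Slc2a4, the insulin-responsive glucose transporter (log2 0.85), Mfn2, a mitofusin (log2 0.72), and Mb (log2 1.72). Acadm and Cd36, which serve fatty acid oxidation and uptake, were the 2 that did not pass from E18.5 to 2 wks (log2 0.70 and 0.29). Acadm was at 146 and 134 CPM in E18.5 replicates 1 and 2 and at 303 and 606 CPM in replicates 3 and 4, which held the adipocyte RNA, and without those libraries 25 of 25 were higher at 2 wks and 5 of 25 rose from 2 to 7 wks. From E18.5 to 2 and to 7 wks, 23 and 25 were higher with the GC trend removed, and 16 in each with total-count scaling. From 2 to 7 wks total-count scaling left none higher and 1 lower. The value for Cpt1b is uncertain, since 68.5% of its exon length lies in Gm44502 on the same strand.

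Of 13 mitochondrially encoded mRNAs, whose transcription TFAM starts, 12 were higher from E18.5 to 2 wks, 8 from 2 to 7 wks and 13 over the whole span, with median log2 fold changes of 1.78, 1.097 and 2.82. The shares of all genes tested that were higher were 31.5%, 13.5% and 34.3%. Counts of all 37 genes of the mitochondrial genome made up 3.27 to 7.58% of a library before birth, and the share was 7.81 to 10.3% in the 2 wks libraries and 12.9 to 16.0% in the 7 wks libraries, without overlap between ages. With total-count scaling 8, 4 and 11 of the mRNAs were higher in the same comparisons, and with the GC trend removed 13, 5 and 13. mt-Nd3, mt-Nd4l, mt-Co2, mt-Atp6 and mt-Atp8 had only 3 to 1342 counts in a library and mt-Co3 89 to 22898, against 1566831 to 6829706 for mt-Co1, so their fold changes are uncertain.

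**Figure D5:**
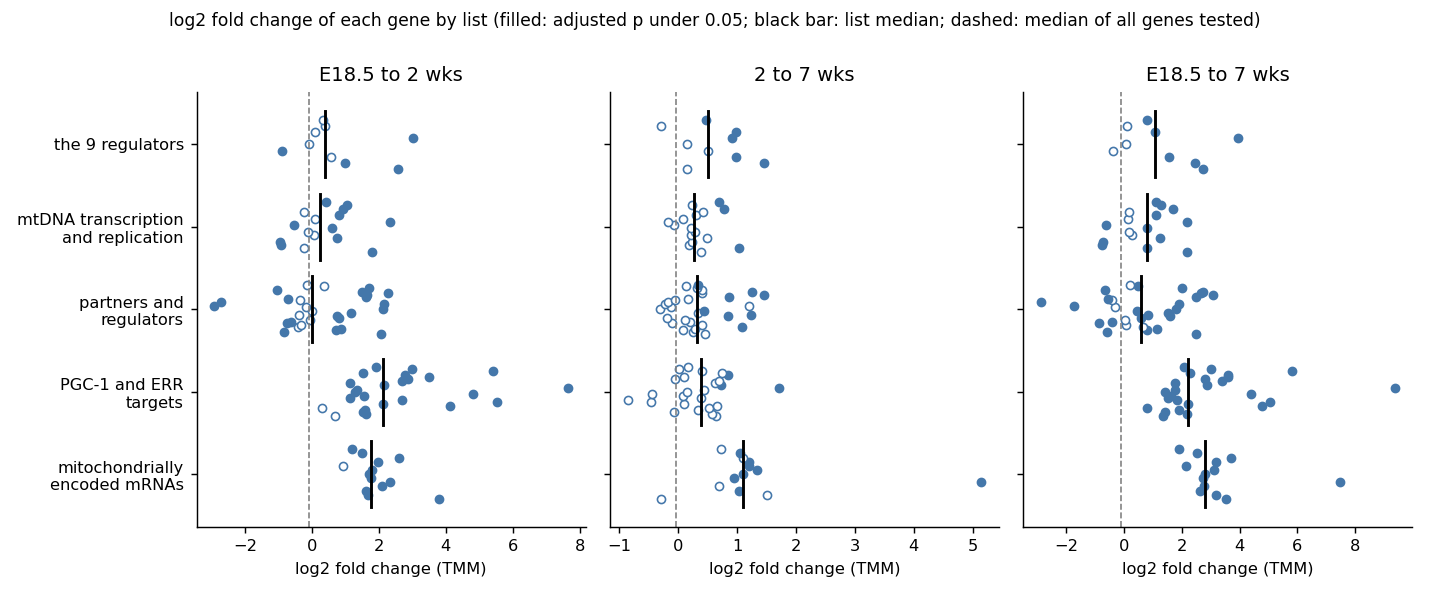
log2 fold change with TMM (horizontal axes) of each gene of the 9 regulators and of the 4 pathway lists, by comparison; filled points had an adjusted p under 0.05, black bars are list medians and the dashed line is the median of all genes tested. From E18.5 to 2 wks the targets of PGC-1 and the estrogen-related receptors had a median of 2.12 and the 9 regulators of 0.40.

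Markers of other cells changed as well, in a comparison from E18.5 to 7 wks where 34.3% of all genes tested were higher and 37.1% lower. From E18.5 to 7 wks, 7 of 8 slow fibre markers were lower (summed level 1747 to 2745 CPM at E18.5 and 196 to 294 CPM at 7 wks). So were 6 of 6 white and 5 of 6 brown adipocyte markers, with the other brown marker, Cox7a1, higher. These adipocyte calls include E18.5 replicates 3 and 4, which held adipocyte RNA. The white marker sum was 179 to 2699 CPM at E18.5 and 309 to 411 CPM at 7 wks. In E18.5 replicates 1 and 2 it was 232 and 179 CPM, below the 7 wks range, but mostly Fabp4 (220 and 163 CPM). Adipoq went the other way, at 6.37 and 7.74 CPM in these libraries and 0.742 to 1.80 CPM at 7 wks. Plin1 and Retn were also higher in both libraries than at 7 wks, and Cidec and Lep overlapped with that age. Lower too were 7 of 8 fibroblast markers, with 1 higher (6107 to 12472 CPM and 1024 to 4183 CPM), and 6 of 7 red blood cell markers (242 to 1026 CPM and 91.9 to 129.7 CPM). The fall also held for 5 of 6 macrophage markers (162 to 203 CPM and 21.2 to 69.6 CPM) and for 4 of 6 cartilage and bone markers tested (24.1 to 153 CPM and 2.82 to 6.89 CPM). Endothelial markers were higher for 2 of 6 (321 to 482 CPM and 471 to 767 CPM), and nerve markers were higher for 1 and lower for 2 of 6 (155 to 263 CPM and 110 to 165 CPM). Of 6 heart markers, 3 could be tested, of which 2 were lower and 1 higher (446 to 605 CPM and 6.74 to 13.0 CPM). The part of these shifts in the levels of the 9 regulators was not tested.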

How the data were processed

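Stranded poly(A)-selected mRNA libraries of the TA were sequenced by the authors, 4 per age. Per the labels, the deposited table holds raw counts per gene. The submitters' processing notes name bcl2fastq 2.17.1.14, cutadapt 1.10, STAR 2.5.3a, HTSeq 0.6.1p1 and build mm10; the annotation and strand setting of the counting are not given in the sources used here. The methods of the study instead name GRCm39 with Cufflinks, so the build behind the counts is not settled. Printed positions locate the genes and enter no test. Gene positions and promoters are from RefSeq on GRCm38.p6, the same assembly as mm10, and gene names (51477 of 55450 identifiers matched), exon lengths, GC content and overlaps from GENCODE vM39, with no coordinates printed from it.

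Counts were analysed with edgeR 4.0.16 in R 4.3.3 (filterByExpr, TMM, quasi-likelihood test, 1 fit of all 12 libraries with age as the only term). P-values were adjusted by Benjamini-Hochberg over 19276 genes, with a threshold of 0.05. SE is the log2 fold change divided by the square root of F. The GC trend was a loess curve per library over transcript GC content, fitted to deviations from the mean over all libraries of the fit. Fits were tested on simulated data. DESeq2 1.42.0, other scalings and filters, a length trend, glmTreat, a replicate block and leaving out each library were run as alternatives. Leaving out E18.5 replicates 3 and 4, and ratios with the GC trend removed, were added after seeing the data. No 2 libraries of an age agreed within sampling noise (chi-square per degree of freedom from 31.2 to 607 in 18 pairs).

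The 9 genes and all lists, including 11 lists of cell type markers, were chosen with earlier results of these data known. Text names the 9 genes, list genes with the 3 largest rises and falls first, and the 3 nearest genes by RMS difference with average log2 CPM of 1 or more. Other list genes named were picked after their values were seen. Intervals from counting are narrow at this depth, and the spread between libraries sets the precision.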

Additional observations from a re-analysis of the deposited data

Results flagged for a closer look

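For 3 of the 9 genes the change from E18.5 to 2 wks differed from the change from 2 to 7 wks by the test of that difference (edgeR, adjusted over all genes tested). The difference was 2.43 on the log2 scale for Esrra (adjusted p = 0.00348), 2.12 for Perm1 (adjusted p = 0.0022) and -1.39 for Gabpa (adjusted p = 0.00715). With the GC trend removed it was 0.49 for Esrra (adjusted p = 0.389), 1.58 for Perm1 (adjusted p = 0.0126) and -0.58 for Gabpa (adjusted p = 0.0808). No library stood apart from the other 3 of its age by Dixon's test in the 27 groups of 4 values of the 9 genes, where chance would give 1.35. That test looks for 1 library apart from 3. It cannot speak to E18.5 replicates 3 and 4, which held adipocyte RNA together.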

How the results depend on the processing

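Replicate numbers were not used as pairs. Of 12 correlations between same-numbered deviations from the age means, 2 were over 0.1 (range -0.0991 to 0.235). The largest was that of E18.5 replicate 1 with 7 wks replicate 1. Such correlations cannot exclude a shared litter or batch. With a replicate block 12470, 5148, 13611 and 7287 genes were called in the comparisons E18.5 to 2 wks, 2 to 7 wks, E18.5 to 7 wks and the difference between the intervals, against 12668, 5295, 13755 and 7398 without it, and among the 9 genes it changed the calls of Esrrg (E18.5 to 2 wks, 0.61) and Tfam (2 to 7 wks, 0.47). Over all alternatives 778 values of the 9 genes kept their direction and their side of the threshold, 52 lost the threshold, 38 gained it and 50 reversed. The cause was not tested. Values that reversed are log2 differences. With total-count scaling, E18.5 to 2 wks gave -0.83 for Ppargc1a, -0.53 for Ppargc1b, -0.36 for Esrrg and -0.59 for Tfam, 2 to 7 wks gave -0.18 for Esrra and -0.20 for Nrf1, and E18.5 to 7 wks gave -0.17 for Ppargc1a, -1.16 for Ppargc1b, -1.21 for Nrf1 and -0.46 for Tfam. Ppargc1a (E18.5 to 2 wks), Ppargc1b and Nrf1 (E18.5 to 7 wks) gave -0.035, -0.13 and -0.17 with upper-quartile scaling and -0.017, -0.045 and -0.095 with at least 10 counts in every library. With the length trend removed, E18.5 to 2 wks gave -0.012 for Ppargc1a, 0.010 for Nrf1 and -0.019 for Tfam, and E18.5 to 7 wks -0.13 for Ppargc1b. With the GC trend removed, Ppargc1b gave -0.78, 0.060, -0.71 and, for the difference, -0.84, Nrf1 gave -0.34 from E18.5 to 7 wks, and the difference was 0.32 for Esrrg and 0.51 for Tfam. The replicate block with the GC trend removed gave -0.62, 0.10, -0.52 and -0.72 for Ppargc1b, -0.34 for Nrf1, and 0.31 and 0.52 for the differences of Esrrg and Tfam. Without E18.5 replicates 3 and 4 and with the GC trend removed, both chosen together after seeing the data, Esrrb gave -0.19 from E18.5 to 2 wks, Ppargc1b 0.055 from 2 to 7 wks, Nrf1 -0.45 and Gabpa 0.028 from E18.5 to 7 wks, and the differences were 0.48 for Ppargc1a, 0.45 for Esrrg and 0.61 for Tfam. With only the 8 libraries compared, Nrf1 gave -0.024 from E18.5 to 7 wks. Leaving out 1 library at a time, values ran from -0.11 to 0.51 for Ppargc1a and from -0.16 to 0.046 for Nrf1 (E18.5 to 2 wks), from -0.0076 to 0.39 for Esrra (2 to 7 wks), from -0.21 to 0.75 for Ppargc1b and from -0.016 to 0.19 for Nrf1 (E18.5 to 7 wks), and from -0.25 to 0.022 for the difference of Tfam. Testing for changes beyond 1 on the log2 scale called 5507, 561 and 7574 genes and 2, 0 and 4 of the 9 in the 3 comparisons. Of the 9, the replicate block with the GC trend removed called 7 from E18.5 to 2 wks, total-count scaling called 1 and the GC trend removed 3 from 2 to 7 wks, and total-count scaling called 6 for the difference. Among all genes these fits called 12577, 6339, 6363 and 8433 in the same order. Without 1 library, 3 to 7 of the 9 were called from E18.5 to 2 wks and 1 to 6 from 2 to 7 wks. Of all genes, 11810 to 13199 were called from E18.5 to 2 wks, and 3472 (without 2 wks replicate 1) to 6146 from 2 to 7 wks. The split of all genes into higher and lower was 1902 and 3286 with upper-quartile scaling from 2 to 7 wks, and 4855 and 8527 from E18.5 to 2 wks and 5302 and 8964 from E18.5 to 7 wks with the length trend removed. For the difference it was 4163 and 3235, which became 2329 and 6104 with total-count scaling and 3356 and 4143 with the length trend removed.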
